A study of Mus musculus with 31 samples.

Results

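Type 2 conventional dendritic cells (cDC2) and CD11c-positive monocyte-derived cells of the mouse heart were compared for how much each gene's expression differed between infarcted and steady-state hearts. After myocardial infarction (MI), cDC2 held less mRNA of the lysozymes Lyz1 and Lyz2, of Trf (transferrin) and Hmox1 (haem oxygenase 1), of Cd36, Lpl and Pparg, which act in lipid handling, and of the chemokines Ccl6 and Ccl9. For each of these genes the MI effect was more negative in cDC2 than in the monocyte-derived cells. Trp53i11, Enpp1, Ggt5, Galnt12, Fads1, Fads2, Cd86, Gpr183 and H2-Ob had the opposite pattern, with a more positive change in cDC2. The quantity reported is a difference of differences: the log2 fold change of MI over steady state (SS) in cDC2, minus the same log2 fold change in the CD11c-positive monocyte-derived cells, which the labels call moDCs. It was computed for all 13039 genes that passed a filter on low counts, out of 24421 in the count tables. It rests on 15 of the 31 libraries of the series, and the other 16 entered only the estimate of the spread.

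The 4 groups were MI cDC2 with 3 libraries, SS cDC2 with 4, MI moDC with 4 and SS moDC with 4, and all came from Balb/c hearts taken at an age of 8 to 12 weeks. MI was induced by tying off the left anterior descending coronary artery for good during surgery, and SS hearts were not infarcted. Cells were freed with Liberase and DNase and sorted by FACS, a method that separates cells by antibody staining. The sources used here do not give the time after ligation, the sex of the mice, the sorting antibodies or any pooling of hearts, so p-values measure the spread between these libraries. Anything that set all MI preparations apart from all SS preparations cannot be told apart from MI itself, although a shift common to both cell types cancels in the difference.

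Conventional dendritic cells arise from a dedicated precursor under the growth factor receptor Flt3. The cDC2 subset takes up antigen in tissue, carries it to the draining lymph node and presents it on MHC class II, mainly to CD4+ T cells. Monocyte-derived cells arise from circulating monocytes, share CD11c and MHC class II with dendritic cells, and share lysozyme, scavenger receptors and Fc receptors with macrophages. The series' title concerns whether infarction activates dendritic cells that prime T cells against the heart, and the present comparison asks where cDC2 and monocyte-derived cells answer infarction differently.

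Levels are given in CPM, read counts scaled to equal effective library size. Of 9 cDC2 markers, 7 were higher in cDC2 than in moDCs without overlap in MI and 8 in SS, while Sirpa was lower in cDC2 in both (1121 to 1271 CPM in MI cDC2 against 1369 to 1467 CPM in MI moDCs, and 726 to 907 CPM in SS cDC2 against 1124 to 1209 CPM in SS moDCs). Of 8 moDC markers, 6 were lower in cDC2 without overlap in MI and 5 in SS, and Itgax, which encodes CD11c and stands in both lists, was higher in cDC2. The monocyte chemokine receptor gene Ccr2 overlapped between cDC2 and moDCs in both states. No such count without overlap was made over all tested genes. Flt3 lay at 195 to 217 CPM in MI cDC2 and at 51.7 to 86.9 CPM in SS cDC2, against 18.9 to 49.4 CPM in MI moDCs and 9.83 to 23.8 CPM in SS moDCs. Cd209a, a C-type lectin of cDC2, had 2023 to 2765 CPM in MI cDC2 and 1845 to 2474 CPM in SS cDC2, against 284 to 509.7 CPM in MI moDCs and 232 to 636 CPM in SS moDCs. In the other direction, C1qa, a complement component of macrophages, had 85.9 to 229 CPM in MI cDC2 and 294 to 714 CPM in SS cDC2, against 1459 to 1815 CPM in MI moDCs and 1616 to 4111 CPM in SS moDCs. The 13 monocyte and macrophage identity genes, which include Lyz2, summed to 5365 to 8485 CPM in MI cDC2 and 19574 to 31749.9 CPM in SS cDC2, against 19204 to 23999 CPM in MI moDCs and 26653 to 34062 CPM in SS moDCs. SS cDC2 libraries reached the range of moDC libraries for this sum, and MI cDC2 libraries did not. Lyz2 alone held 14339 to 25126 CPM in SS cDC2, against 11386 to 14987 CPM in MI moDCs and 16396 to 25158 CPM in SS moDCs. The overlap in this sum therefore largely reflects Lyz2, and for C1qa SS cDC2 stayed below every moDC library. In sorted bulk samples, fewer cells of a type and less RNA per cell cannot be told apart, and the part of this sum in the results below was not tested.

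Reads in genes numbered 9231246 to 16135415 over the 15 libraries. SS libraries numbered 1 and 4 had 11.6% to 14.6% of counted entries in no annotated feature, against 6.42% to 7.55% in those numbered 2 and 3. Sums of 14 mural cell markers were 9.52 to 15.9 CPM in MI cDC2 and 12.8 to 62.7 CPM in SS cDC2, against 21.1 to 33.4 CPM in MI moDCs and 51.0 to 393.0 CPM in SS moDCs, highest in SS moDC replicate 2. In MI cDC2, 4 of these markers (Rgs5, Kcnj8, Vtn and Higd1b) had 0 counts. The sums of 16 endothelial markers were 83.9 to 102 CPM in MI cDC2 and 108 to 289 CPM in SS cDC2, against 121 to 197 CPM in MI moDCs and 231 to 633 CPM in SS moDCs. The mural and endothelial markers were also pooled into 1 sum per library. With the log2 of this pooled sum as a covariate the fit called 102 genes, 92 of them among the 118 of the fit without it.

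The MI effect differed between cDC2 and moDCs for 118 genes, 0.905% of those tested, by edgeR's quasi-likelihood test at a Benjamini-Hochberg adjusted p under 0.05. The difference was positive for 54 genes (0.414%) and negative for 64 (0.491%), and the median over all tested genes was -0.009 on the log2 scale. Among called genes the size ran from 0.67 to 3.49, with a median of 1.59 for the positive and -1.26 for the negative ones, and 92 genes differed by a factor of 2 or more. For comparison, the separate MI effects passed the same test for 1440 genes (11.0%) in cDC2, with 575 rising (4.41%) and 865 falling (6.63%), and for 631 genes (4.84%) in moDCs, with 198 rising (1.52%) and 433 falling (3.32%). Differences are given below as log2 values ± SE with their adjusted p. A gene that passed in one cell type alone is not shown to differ between them, and the interval of the difference was wide. Its 95% limits lay a median of 0.77 from the estimate on the log2 scale over the 12039 genes used for this summary. Of those intervals, 42% lay within a factor of 2 either way. The summary left out genes with 3 or fewer summed counts in any group or a test statistic near 0, so it describes the better covered genes.

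**Figure D1:**
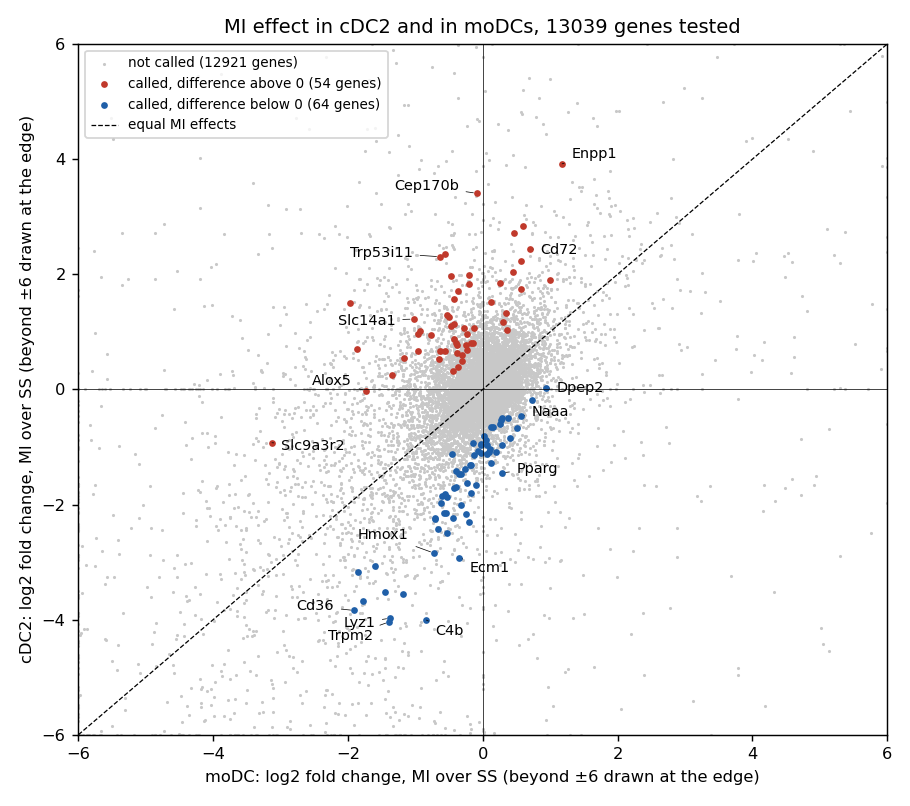
Each point is a gene, with the log2 fold change of MI over SS in moDCs on the horizontal and in cDC2 on the vertical axis, and called genes coloured by the direction of the difference. Most of the 64 genes with a negative difference lie where cDC2 fell and moDCs did not pass, and most of the 54 with a positive difference lie where cDC2 rose.

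For most called genes the MI effect passed in cDC2 and not in moDCs. Of the 64 with a negative difference, 51 fell in cDC2 and did not pass in moDCs, 10 fell in both with the larger fall in cDC2, 1 fell in cDC2 and rose in moDCs, and 2 passed only in moDCs, where they rose. Of the 54 with a positive difference, 37 rose in cDC2 and did not pass in moDCs, 8 fell in moDCs and did not pass in cDC2, 4 rose in cDC2 and fell in moDCs, 3 rose in both, and 2 passed in neither alone. The estimated changes had opposite signs in the 2 cell types for 59 of the 118 genes. By single libraries, MI lay below SS without overlap in cDC2 for 61 of the 64 genes, and in moDCs the groups overlapped for 37 of these, MI lay below SS for 21 and above for 3. For 45 of the 54 genes MI lay above SS without overlap in cDC2, and in moDCs the groups overlapped for 32 of these, MI lay below SS for 9 and above for 4. These genes were selected by their difference, and the same counts were not made over all tested genes.

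The count depended on single libraries: it was 58 without MI cDC2 replicate 2, 76 without SS moDC replicate 2 and 225 without SS moDC replicate 3. With only the SS libraries numbered 1 and 4 it was 83, with only those numbered 2 and 3 it was also 83, and without both SS libraries numbered 2, a setting chosen after seeing the data, it was 52. Negative differences numbered 27 without MI cDC2 replicate 2, 42 without SS cDC2 replicate 2, 42 without SS moDC replicate 1 and 40 with SS libraries 1 and 4 only. Of 55 named genes, 35 passed with SS libraries 1 and 4 only and 33 with 2 and 3 only. In each of these and in every other alternative run, all 118 differences kept their sign. The genes were selected on these same libraries, which the runs largely reuse, so kept signs are not separate support.

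The lysozymes, enzymes that cut bacterial cell walls and classical transcripts of monocytes and macrophages, had negative differences. Lyz2 had 3634, 2169 and 4582 CPM in the MI cDC2 libraries, against 14339, 25126, 23415 and 15338 CPM in SS cDC2. In moDCs Lyz2 had 14987, 11386, 13745 and 14710.4 CPM in MI, against 16396, 20172, 25158 and 17143 CPM in SS. Every MI cDC2 library lay below every SS cDC2 library and also below every moDC library, and MI moDCs lay below SS moDCs, also without overlap. Lyz2 was 5.65-fold lower in MI than in SS cDC2 and 1.44-fold lower in moDCs, where the change did not pass (adjusted p = 0.0984). The log2 difference between the cell types was -1.97 ± 0.27 (SE, edgeR quasi-likelihood adjusted p = 0.000116). Lyz1 had 494, 269 and 622 CPM in the MI cDC2 libraries, against 4628, 9788, 8166 and 6435 CPM in SS cDC2. In moDCs Lyz1 had 1537, 1125, 1261 and 1452 CPM in MI, against 2309, 2801, 6078 and 2756 CPM in SS. MI lay below SS in every library of each cell type, and the MI cDC2 libraries were the lowest of all. Lyz1 fell 15.7-fold in cDC2 and 2.59-fold in moDCs, a log2 difference of -2.60 ± 0.39 (adjusted p = 0.000473). The genes are neighbours, Lyz2 at chr10:117277331-117282321 and Lyz1 at chr10:117287797-117292868 (GRCm38, GENCODE M21, both on the minus strand), and being near-identical copies they can exchange reads in counting, so the split between them is uncertain. Both calls held under all 27 alternatives, and the log2 difference of Lyz2 was -1.80 with SS libraries 1 and 4 and -2.08 with SS libraries 2 and 3.

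The promoters of the lysozyme pair are shown because both genes moved together by different amounts, and that of Cd72, a gene with the opposite difference, is shown beside them. Each run holds 250 bases before and 50 after the annotated start (RefSeq, GRCm38.p6), read 5′ to 3′ on the gene's own strand, and capitals mark matches to AGGAAGT, a core bound by ETS factors such as PU.1, or to TTGCNNAA, a loose C/EBP pattern, on either strand.
Lyz2 promoter, chr10:117282223-117282522, minus strand: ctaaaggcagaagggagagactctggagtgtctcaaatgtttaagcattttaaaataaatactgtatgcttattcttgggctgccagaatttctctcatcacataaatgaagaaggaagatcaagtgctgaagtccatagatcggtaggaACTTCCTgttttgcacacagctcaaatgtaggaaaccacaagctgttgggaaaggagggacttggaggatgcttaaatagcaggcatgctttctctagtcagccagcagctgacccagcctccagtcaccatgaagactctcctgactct
Lyz1 promoter, chr10:117292819-117293118, minus strand: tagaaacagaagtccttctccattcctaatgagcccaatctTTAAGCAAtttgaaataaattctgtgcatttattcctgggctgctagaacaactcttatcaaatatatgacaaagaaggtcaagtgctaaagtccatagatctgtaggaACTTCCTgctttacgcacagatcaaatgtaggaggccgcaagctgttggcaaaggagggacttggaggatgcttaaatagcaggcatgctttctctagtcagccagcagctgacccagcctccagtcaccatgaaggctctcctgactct
Cd72 promoter, chr4:43454577-43454876, minus strand: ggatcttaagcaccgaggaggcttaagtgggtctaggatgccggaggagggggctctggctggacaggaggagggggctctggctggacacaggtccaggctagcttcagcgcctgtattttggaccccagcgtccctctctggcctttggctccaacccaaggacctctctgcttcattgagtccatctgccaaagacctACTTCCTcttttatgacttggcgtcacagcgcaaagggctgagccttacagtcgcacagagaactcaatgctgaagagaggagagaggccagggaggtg
The Lyz2 and Lyz1 promoters matched at 201 of 300 bases in their best ungapped alignment. Both hold the ETS letters starting 100 bases before the start, on the opposite strand (ACTTCCT), and Lyz1 alone of the pair holds the C/EBP letters, starting 209 bases before it. Cd72 holds the ETS letters 49 bases before its start. The promoter of Trp53i11, also a gene with a positive difference, was read in the same way, holds neither pattern and is not printed. Of all 32851 promoters of this length 9.35% hold AGGAAGT and 10.8% hold TTGCNNAA. Among promoters of called genes the ETS letters stood in 16 of 69 (23.2%) with a negative and 6 of 47 (12.8%) with a positive difference, and the C/EBP letters in 11 of 69 (15.9%) and 6 of 47 (12.8%). The letters were chosen after these sequences were seen, several promoters can belong to one gene, and a match is a run of letters and not a measured binding site.

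Trf, Hmox1, Steap3 and Slc11a1 act in iron or haem handling and are given together. They were grouped after their values were seen, from no list of iron genes, so other called genes can share these roles and no count is given. Trf and Slc11a1 were also chosen in that way. Trf had 592, 481 and 596 CPM in the MI cDC2 libraries, against 1826, 2231, 2168 and 1811 CPM in SS cDC2. In moDCs Trf had 1204, 1057, 1167 and 1281 CPM in MI, against 1774, 1955, 1710.3 and 1743 CPM in SS. Trf encodes transferrin, the plasma iron carrier, and MI lay below SS without overlap in both cell types. Its log2 difference of -1.24 ± 0.14 (adjusted p = 4.79e-06) had the smallest p of all genes, from a 3.61-fold fall in cDC2 and a 1.53-fold fall in moDCs. Hmox1 had 41.2, 29.2 and 35.6 CPM in the MI cDC2 libraries, against 291, 290.0, 141 and 293 CPM in SS cDC2. In moDCs Hmox1 had 174, 231, 172 and 167 CPM in MI, against 294, 354, 260.5 and 322 CPM in SS. Hmox1, haem oxygenase 1, frees iron from haem, and the MI cDC2 libraries were the lowest of all. The log2 difference of Hmox1 was -2.12 ± 0.35 (adjusted p = 0.00113). The ferrireductase gene Steap3 averaged 12.1 ± 4.43 CPM in MI cDC2 and 54.3 ± 20.6 in SS cDC2, with 31.8 ± 5.48 in MI moDCs and 37.9 ± 10.7 in SS moDCs (SD). It fell 4.49-fold in cDC2, and its log2 difference was -1.92 ± 0.41 (adjusted p = 0.0122). Slc11a1, which encodes a metal ion transporter of phagosomes, averaged 72.7 ± 22.4 CPM in MI cDC2 and 344 ± 114 in SS cDC2, with 325 ± 27.8 in MI moDCs and 529 ± 61.8 in SS moDCs (SD) and had a log2 difference of -1.54 ± 0.33 (adjusted p = 0.0143). Without MI cDC2 replicate 2, Steap3 (adjusted p = 0.0748) and Slc11a1 (adjusted p = 0.0697) no longer passed. With SS libraries 2 and 3 only, Hmox1 was at -1.88 (adjusted p = 0.0942), and with SS libraries 1 and 4 only, Steap3 was at -1.57 (adjusted p = 0.128) and Slc11a1 at -1.63 (adjusted p = 0.0648).

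Of 24 genes of cholesterol efflux and lipid handling, 3 had a negative and none a positive called difference. Over all tested genes, 0.491% had a negative one. The list's median was -0.52, and 8 of its 24 estimates were above 0. Cd36 had 23.1, 21.4 and 16.8 CPM in the MI cDC2 libraries, against 404, 343, 225 and 199 CPM in SS cDC2. In moDCs Cd36 had 64.2, 155, 134 and 103 CPM in MI, against 304, 512, 484 and 414 CPM in SS. Cd36 is a scavenger receptor for oxidised lipids and long-chain fatty acids, and MI lay below SS in both cell types without overlap. It fell 14.3-fold in cDC2 and 3.75-fold in moDCs, with a log2 difference of -1.93 ± 0.36 (adjusted p = 0.00479). Pparg had 24.3, 14.8 and 25.1 CPM in the MI cDC2 libraries, against 90.4, 55.1, 49.5 and 38.7 CPM in SS cDC2. In moDCs Pparg had 67.4, 62.01, 55.2 and 58.03 CPM in MI, against 42.8, 37.7, 60.04 and 58.5 CPM in SS. Pparg encodes a nuclear receptor that switches on Cd36 and other lipid genes. MI cDC2 lay below SS cDC2 without overlap, and the moDC groups overlapped. The log2 change of Pparg was -1.45 in cDC2 (adjusted p = 8.73e-05) and 0.29 in moDCs (adjusted p = 0.54), a difference of -1.74 ± 0.32 (adjusted p = 0.0036). Lpl, lipoprotein lipase, averaged 84.05 ± 33.4 CPM in MI cDC2 and 453 ± 95.9 in SS cDC2, with 284 ± 27.8 in MI moDCs and 448 ± 111 in SS moDCs (SD), with a log2 difference of -1.77 ± 0.37 (adjusted p = 0.0117). Slc27a3, of the fatty acid transporter family, had a log2 difference of -2.36 ± 0.59 (adjusted p = 0.0462), but its call was lost in 11 of the 15 fits that left out 1 library, with an adjusted p of up to 0.16. The call of Lpl was lost without MI cDC2 replicate 2 (adjusted p = 0.0648) and with only the SS libraries 1 and 4 (adjusted p = 0.197) or 2 and 3 (adjusted p = 0.0747), and that of Cd36 with SS libraries 2 and 3 only (log2 difference -1.67, adjusted p = 0.0746).

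Of 19 tested chemokine genes, 2 had a negative called difference and none a positive one, with a median of -0.98. Over all tested genes, 0.491% had a negative called difference. Ccl6 had 631, 598 and 791 CPM in the MI cDC2 libraries, against 2385, 4109.9, 3447 and 2654 CPM in SS cDC2. In moDCs Ccl6 had 1291, 1268, 1129 and 1092 CPM in MI, against 1069, 1141, 2524 and 1779 CPM in SS. The MI cDC2 libraries had the lowest Ccl6 values of all. Ccl9 had 608, 633 and 717 CPM in the MI cDC2 libraries, against 1513, 2636, 2239.5 and 1902 CPM in SS cDC2. In moDCs Ccl9 had 959, 979.6, 871 and 834 CPM in MI, against 783, 785, 1470.0 and 881 CPM in SS. In both genes MI cDC2 lay below SS cDC2 in every library, and MI and SS moDCs overlapped. Ccl6 and Ccl9 encode CC chemokines of myeloid cells and are neighbours on chromosome 11, at chr11:83587882-83593087 and chr11:83572919-83578636 (GRCm38). Ccl6 fell 4.68-fold in cDC2, with a log2 difference between the cell types of -1.78 ± 0.34 (adjusted p = 0.00503). Ccl9 fell 3.18-fold in cDC2, with a log2 difference of -1.56 ± 0.33 (adjusted p = 0.0117), and without both SS libraries numbered 2 its adjusted p was 0.0739. Ecm1 had 57.1, 46.5 and 57.5 CPM in the MI cDC2 libraries, against 303, 497, 452 and 377 CPM in SS cDC2. In moDCs Ecm1 had 146, 198, 202 and 194 CPM in MI, against 174, 148, 354 and 271 CPM in SS. Ecm1, which encodes a secreted matrix protein, lay lowest in MI cDC2, and its moDC groups overlapped. It fell 7.58-fold in cDC2, with a log2 difference of -2.57 ± 0.42 (adjusted p = 0.00113), the 1 call among 28 tested tissue repair and matrix genes. Il1rn, the natural antagonist of the interleukin 1 receptor, averaged 57.6 ± 9.30 CPM in MI cDC2 and 285 ± 120.0 in SS cDC2, with 218 ± 39.3 in MI moDCs and 252 ± 110.0 in SS moDCs (SD). It fell 4.94-fold in cDC2 with a log2 difference of -2.10 ± 0.48 (adjusted p = 0.0272). The Il1rn call was lost in 9 of the 15 fits that left out 1 library, with an adjusted p of up to 0.115, and in the fit on the 15 libraries alone (adjusted p = 0.0531).

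**Figure D2:**
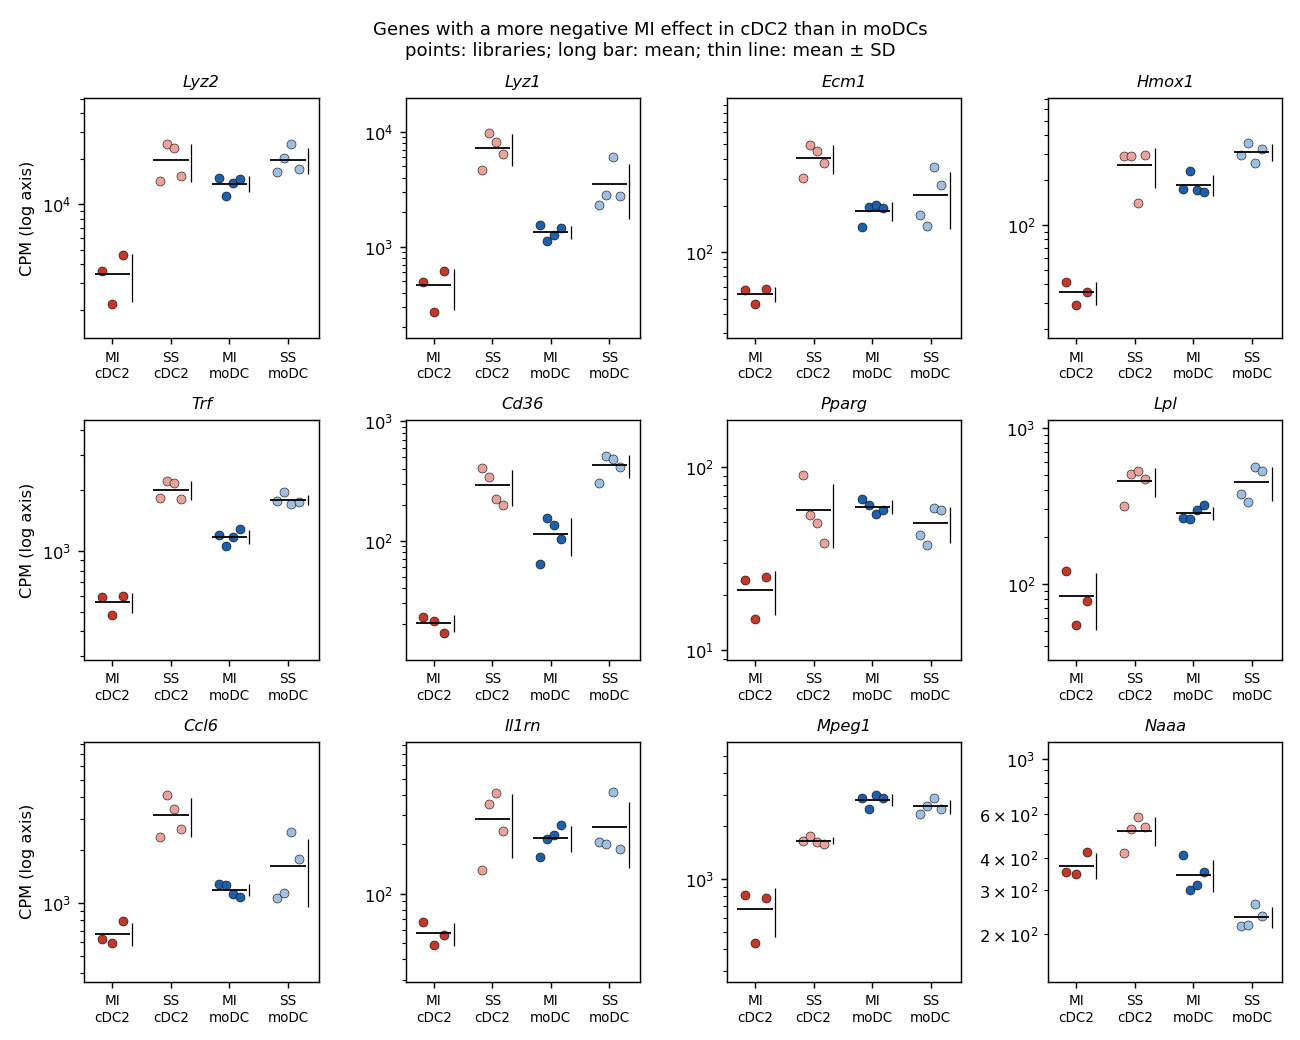
CPM on a log axis in each library for genes with a more negative MI effect in cDC2, by group, with a bar at the mean and a line of mean ± SD. For Lyz2, MI cDC2 libraries sit at 2169 to 4582 CPM and the other 3 groups at 11386 to 25158 CPM.

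Receptor and effector genes of monocytes and macrophages were also among the negative differences. Of 13 monocyte and macrophage identity genes 2 were called, Lyz2 and Adgre1, with a median of -0.69. Of 22 Fc receptor and complement genes 2 were called, C4b and Fcrls, with a median of -0.55. Over all tested genes, 0.905% were called, 0.491% with a negative difference. C4b, the complement component C4, averaged 1.37 ± 0.934 CPM in MI cDC2 and 22.4 ± 11.5 in SS cDC2, with 24.6 ± 5.98 in MI moDCs and 44.1 ± 11.8 in SS moDCs (SD). It stood at 43 summed reads over the 3 MI cDC2 libraries, and its log2 difference of -3.17 ± 0.66 (adjusted p = 0.0137) was the most negative of the named genes. Mpeg1 had 816, 437 and 784 CPM in the MI cDC2 libraries, against 1642, 1747, 1625 and 1578 CPM in SS cDC2. In moDCs Mpeg1 had 2889.5, 2485, 2989 and 2869 CPM in MI, against 2333, 2602, 2890.1 and 2479.7 CPM in SS. Mpeg1, which encodes a pore-forming protein of phagosomes and was chosen after its values were seen, fell 2.43-fold in cDC2, while the moDC groups overlapped. Its log2 difference was -1.40 ± 0.18 (adjusted p = 1.99e-05). Trpm2, a cation channel opened by oxidative stress, averaged 0.426 ± 0.492 CPM in MI cDC2 and 7.08 ± 2.24 in SS cDC2, with 7.05 ± 1.70 in MI moDCs and 18.5 ± 3.26 in SS moDCs (SD). It fell 16.4-fold in cDC2 and 2.62-fold in moDCs, with a log2 difference of -2.65 ± 0.58 (adjusted p = 0.0137). Trpm2 had only 13 summed reads over the 3 MI cDC2 libraries, so the size of its fall there is imprecise. Cd226, an adhesion and signalling receptor better known on lymphocytes, averaged 14.1 ± 2.14 CPM in MI cDC2 and 162 ± 36.5 in SS cDC2, with 14.9 ± 2.94 in MI moDCs and 40.7 ± 27.1 in SS moDCs (SD). It fell 11.5-fold in cDC2 and 2.73-fold in moDCs, with a log2 difference of -2.07 ± 0.43 (adjusted p = 0.011). Tlr8, an endosomal receptor for RNA, averaged 16.7 ± 4.76 CPM in MI cDC2 and 32.6 ± 1.58 in SS cDC2, with 71.2 ± 9.89 in MI moDCs and 58.6 ± 7.12 in SS moDCs (SD), and had a log2 difference of -1.24 ± 0.25 (adjusted p = 0.0111). Colec12, a scavenger receptor, Pla2g7, a secreted phospholipase, and Cebpb, a transcription factor of myeloid cells, were chosen after their values were seen. Their log2 differences were -1.61 ± 0.32, -1.14 ± 0.21 and -1.62 ± 0.35 (adjusted p = 0.00664, 0.00363 and 0.0137).

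Several of these calls were lost when 1 library was left out. A fit on fewer libraries is also less precise, so a lost call need not mean a changed estimate. C4b was at -3.76 without MI cDC2 replicate 1 and lost its call without MI cDC2 replicate 2 (adjusted p = 0.0841) or 3 (adjusted p = 0.0522). Trpm2 was at -4.15 without MI cDC2 replicate 2 and lost its call without MI cDC2 replicate 1 (adjusted p = 0.0816) or 3 (adjusted p = 0.0879). Tlr8 lost it without MI cDC2 replicate 2 (adjusted p = 0.0548), and Cebpb without MI cDC2 replicate 1 (adjusted p = 0.0544) or 2 (adjusted p = 0.055). Adgre1, the F4/80 antigen of macrophages, averaged 105 ± 35.6 CPM in MI cDC2 and 292 ± 33.3 in SS cDC2, with 698 ± 70.7 in MI moDCs and 892 ± 235 in SS moDCs (SD). Adgre1 had a log2 difference of -1.12 ± 0.28 (adjusted p = 0.0399) and Fcrls, an Fc receptor-like gene, of -1.89 ± 0.45 (adjusted p = 0.0346), and each lost its call in 11 of the 15 fits that left out 1 library, with an adjusted p of up to 0.153 for Adgre1 and 0.159 for Fcrls. Mpeg1, Colec12 and Pla2g7 kept their calls in all 27 alternatives. Fitted on the 15 libraries alone, Trpm2 (adjusted p = 0.0637), Cd226 (adjusted p = 0.0813), Adgre1 (adjusted p = 0.0761) and Fcrls (adjusted p = 0.0841) did not pass, and by limma voom C4b (adjusted p = 0.161) and Trpm2 (adjusted p = 0.146) did not. With SS libraries 1 and 4 only, the adjusted p was 0.117 for C4b, 0.0999 for Tlr8, 0.0823 for Adgre1 and 0.0632 for Fcrls. With SS libraries 2 and 3 only, it was 0.0727 for Trpm2, 0.0805 for Cd226, 0.0572 for Tlr8, 0.194 for Adgre1, 0.134 for Fcrls and 0.146 for Cebpb.

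In 3 genes with a negative difference the monocyte-derived cells rose. Naaa had 352, 345 and 425 CPM in the MI cDC2 libraries, against 419.9, 522, 582 and 532 CPM in SS cDC2. In moDCs Naaa had 412, 299.5, 312 and 353 CPM in MI, against 214, 217, 263 and 235 CPM in SS. Naaa encodes a lysosomal amidase that breaks down the lipid mediator palmitoylethanolamide. Every MI moDC library lay above every SS moDC library, and the cDC2 groups overlapped. The log2 change was -0.46 in cDC2 (adjusted p = 0.00709) and 0.57 in moDCs (adjusted p = 0.000944), so that Naaa alone of the 64 genes fell in cDC2 and rose in moDCs, with a difference of -1.03 ± 0.16 (adjusted p = 0.000332). Naaa was the 1 call among 16 identity genes of cDC1, the type 1 conventional dendritic cells (median -0.34). The 5 cDC1 markers summed to 290 to 431 CPM in MI cDC2 and 278 to 357 CPM in SS cDC2. In moDCs the sums were 606 to 735 CPM in MI and 612 to 777 CPM in SS. Among these markers, Clec9a was lower and Cadm1 higher in MI than in SS cDC2, both without overlap. A part of cDC1 in the Naaa difference was not tested. Ero1l, an oxidase of the endoplasmic reticulum induced by hypoxia, averaged 58.3 ± 4.45 CPM in MI cDC2 and 66.4 ± 5.26 in SS cDC2, with 77.4 ± 7.63 in MI moDCs and 46.7 ± 13.4 in SS moDCs (SD), and rose 1.66-fold in moDCs with a log2 difference of -0.92 ± 0.22 (adjusted p = 0.0315). It was the 1 call among 35 glycolysis and hypoxia genes, whose median was -0.34. The call was lost in 9 of the 15 fits that left out 1 library (adjusted p up to 0.129). It was also lost in the fit on the 15 libraries alone (adjusted p = 0.0997) and in that with the pooled mural and endothelial sum (adjusted p = 0.0645). Dpep2, a membrane dipeptidase chosen after its values were seen, rose 1.91-fold in moDCs with a log2 difference of -0.91 ± 0.20 (adjusted p = 0.0137), and without MI cDC2 replicate 2 its adjusted p was 0.0919. With SS libraries 1 and 4 only, neither Ero1l (adjusted p = 0.268) nor Dpep2 (adjusted p = 0.181) passed.

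Among the 54 genes with a positive difference, Trp53i11, a p53-inducible membrane protein gene at chr2:93187548-93201759 (GRCm38), had the smallest p. Trp53i11 had 119, 136 and 136 CPM in the MI cDC2 libraries, against 18.3, 24.9, 27.7 and 34.7 CPM in SS cDC2. In moDCs Trp53i11 had 22.05, 22.5, 14.5 and 23.1 CPM in MI, against 30.8, 44.1, 19.5 and 32.7 CPM in SS. The 3 MI cDC2 libraries lay above all the other 12, and the moDC groups overlapped. It rose 4.94-fold in cDC2, with a log2 difference of 2.94 ± 0.35 (adjusted p = 7.06e-06). Enpp1 had 96.1, 107 and 114 CPM in the MI cDC2 libraries, against 3.73, 4.05, 9.63 and 10.5 CPM in SS cDC2. In moDCs Enpp1 had 63.6, 46.2, 44.1 and 59.4 CPM in MI, against 18.6, 13.7, 28.8 and 33.5 CPM in SS. Enpp1 encodes a surface enzyme that makes pyrophosphate from ATP and degrades the second messenger cGAMP. MI lay above SS in both cell types without overlap, and it rose 15.1-fold in cDC2 and 2.26-fold in moDCs. The log2 difference of Enpp1 was 2.74 ± 0.51 (adjusted p = 0.00434). Ggt5 had 23.4, 39.8 and 44.8 CPM in the MI cDC2 libraries, against 7.95, 3.30, 4.05 and 12.6 CPM in SS cDC2. In moDCs Ggt5 had 10.98, 16.1, 8.77 and 11.4 CPM in MI, against 18.6, 21.8, 8.52 and 20.8 CPM in SS. Ggt5, a gamma-glutamyl transferase that acts on glutathione and leukotriene C4, separated MI from SS in cDC2 and overlapped in moDCs, with a log2 difference of 2.92 ± 0.56 (adjusted p = 0.00474). Cep170b, a centrosomal protein gene, averaged 14.1 ± 3.35 CPM in MI cDC2 and 1.33 ± 0.583 in SS cDC2, with 7.53 ± 2.96 in MI moDCs and 8.01 ± 3.98 in SS moDCs (SD). Its log2 difference of 3.49 ± 0.63 (adjusted p = 0.00243) was the largest of the named genes, and it was 2.55 with SS libraries 2 and 3 only (adjusted p = 0.0942).

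Fatty acid desaturases and a glycosyltransferase followed the same pattern at lower size. Fads2 had 25.5, 28.6 and 26.9 CPM in the MI cDC2 libraries, against 5.40, 6.18, 8.21 and 7.40 CPM in SS cDC2. In moDCs Fads2 had 6.12, 12.9, 6.38 and 8.00 CPM in MI, against 10.6, 10.3, 11.6 and 6.03 CPM in SS. For Fads2 every MI cDC2 library lay above all other libraries. Fads1 had 175, 195 and 199 CPM in the MI cDC2 libraries, against 78.6, 108, 108 and 94.5 CPM in SS cDC2. In moDCs Fads1 had 175, 161, 165 and 185 CPM in MI, against 222, 256, 149 and 181 CPM in SS. Fads1 and Fads2 encode the desaturases that make long polyunsaturated fatty acids, lie close together at chr19:10182888-10196877 and chr19:10062765-10101746 (GRCm38), and in each gene MI cDC2 lay above SS cDC2 in every library with overlapping moDC groups. Fads2 rose 3.97-fold and Fads1 1.95-fold in cDC2. The log2 differences were 2.19 ± 0.42 (adjusted p = 0.00467) for Fads2 and 1.203 ± 0.17 (adjusted p = 0.000126) for Fads1, which was chosen after its values were seen. With SS libraries 1 and 4 only, Fads2 was at 2.09 (adjusted p = 0.0659). Galnt12 had 33.6, 37 and 29 CPM in the MI cDC2 libraries, against 11.4, 7.24, 9.19 and 9.27 CPM in SS cDC2. In moDCs Galnt12 had 27.6, 27.3, 22.6 and 26.9 CPM in MI, against 34.6, 38.9, 20.8 and 25.6 CPM in SS. Galnt12, which starts O-linked sugar chains on proteins, rose 3.58-fold in cDC2 into the range of moDCs, with a log2 difference of 2.04 ± 0.29 (adjusted p = 0.000116). Cxxc5, a zinc finger gene, averaged 22.2 ± 2.79 CPM in MI cDC2 and 6.76 ± 2.38 in SS cDC2, with 8.71 ± 2.78 in MI moDCs and 11.3 ± 2.42 in SS moDCs (SD), a log2 difference of 2.09 ± 0.43 (adjusted p = 0.00954). Plekha5, a pleckstrin homology domain gene, averaged 28.4 ± 3.85 CPM in MI cDC2 and 4.32 ± 1.22 in SS cDC2, with 9.42 ± 2.07 in MI moDCs and 6.80 ± 3.38 in SS moDCs (SD), a log2 difference of 2.25 ± 0.44 (adjusted p = 0.00572). With SS libraries 2 and 3 only, the adjusted p was 0.147 for Cxxc5 and 0.0745 for Plekha5. Plekha5 did not pass on the 15 libraries alone (adjusted p = 0.0608) or by limma voom (adjusted p = 0.0641). Tmem231, of the ciliary transition zone, had a log2 difference of 2.25 ± 0.50 (adjusted p = 0.0174) and Tbc1d16, a Rab GTPase activating protein gene, of 2.45 ± 0.61 (adjusted p = 0.042). The call of Tmem231 was lost in 3 of the 15 fits that left out 1 library (without MI cDC2 replicate 2, MI moDC replicate 3 or SS moDC replicate 1, adjusted p up to 0.0697) and that of Tbc1d16 in 14 (adjusted p up to 0.130).

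The lists on MHC class II, maturation, costimulation and chemoattractant receptors held 3 called genes with a positive difference. Over all tested genes, 0.414% had a positive called difference. No gene was called among 20 tested MHC class I genes, whose median was -0.08. Cd86 had 216, 221 and 178 CPM in the MI cDC2 libraries, against 96.7, 128, 130.5 and 116 CPM in SS cDC2. In moDCs Cd86 had 119.9, 147, 136 and 126 CPM in MI, against 214, 251, 104 and 125 CPM in SS. Cd86, the ligand of CD28 on T cells, lay above SS in every MI cDC2 library, and the moDC groups overlapped. It rose 1.74-fold in cDC2, with a log2 difference of 1.19 ± 0.25 (adjusted p = 0.00913), the 1 call among 28 tested migratory maturation genes (median 0.12) and among 21 tested costimulation and coinhibition genes (median -0.32). H2-Ob had 148, 186 and 166 CPM in the MI cDC2 libraries, against 88.8, 98.4, 114 and 118 CPM in SS cDC2. In moDCs H2-Ob had 35.4, 26.7, 25.4 and 34.9 CPM in MI, against 49.9, 55.3, 38.1 and 37.4 CPM in SS. H2-Ob encodes one chain of the MHC class II modulator DO, which restrains peptide loading. MI lay above SS in cDC2 and below SS in moDCs, without overlap in either. The log2 change of H2-Ob was 0.67 in cDC2 (adjusted p = 0.0185) and -0.56 in moDCs (adjusted p = 0.069), a difference of 1.23 ± 0.26 (adjusted p = 0.0119), the 1 call among 14 MHC class II genes, whose median was 0.25. Gpr183 had 255, 310.3 and 266 CPM in the MI cDC2 libraries, against 100.5, 108, 175 and 143 CPM in SS cDC2. In moDCs Gpr183 had 126, 133, 182 and 185 CPM in MI, against 194, 245, 169.6 and 155 CPM in SS. Gpr183, the receptor for oxysterols that positions dendritic cells in lymphoid tissue, rose 2.1-fold in cDC2 with overlapping moDC groups. Its log2 difference was 1.36 ± 0.23 (adjusted p = 0.00123), the 1 call among 25 tested chemoattractant receptor genes, whose median was -0.19. The call of H2-Ob was lost without MI cDC2 replicate 2 (adjusted p = 0.0648), and with SS libraries 2 and 3 only neither H2-Ob (adjusted p = 0.0677) nor Cd86 (adjusted p = 0.0761) passed. Cd86 did not pass on the 15 libraries alone (adjusted p = 0.0855).

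Surface receptors and adaptors, all chosen after their values were seen, also differed. Cd72 had 513, 474 and 498 CPM in the MI cDC2 libraries, against 83.02, 102, 86.1 and 93.4 CPM in SS cDC2. In moDCs Cd72 had 462, 411, 527 and 542 CPM in MI, against 390.0, 415, 159.5 and 235 CPM in SS. Cd72, an inhibitory C-type lectin first known from B cells, separated MI from SS in cDC2, where MI reached the range of moDCs, and the moDC groups overlapped. It rose 5.43-fold in cDC2 and 1.62-fold in moDCs, a log2 difference of 1.75 ± 0.29 (adjusted p = 0.00113). The 9 B cell markers summed to 11.6 to 19.2 CPM in MI cDC2 and 23.6 to 32.2 CPM in SS cDC2, against 26.7 to 37.7 CPM in MI moDCs and 37.3 to 61.8 CPM in SS moDCs, and Pax5, Blk, Fcmr and Ebf1 were among those with 0 counts in all MI cDC2 libraries. Cd33 had 120.0, 99.2 and 90.2 CPM in the MI cDC2 libraries, against 26.99, 43.4, 49.04 and 48.3 CPM in SS cDC2. In moDCs Cd33 had 127, 93.1, 106 and 115 CPM in MI, against 193, 205, 98.3 and 141 CPM in SS. Cd33, a sialic acid-binding inhibitory receptor, rose 2.46-fold in cDC2 with a log2 difference of 1.83 ± 0.32 (adjusted p = 0.00166), and its moDC groups overlapped. Parvg had 174, 229 and 239.5 CPM in the MI cDC2 libraries, against 109, 105, 110.0 and 124 CPM in SS cDC2. In moDCs Parvg had 61.5, 80.7, 63.5 and 74.04 CPM in MI, against 156, 131, 94.2 and 96.7 CPM in SS. Parvg, a parvin that links integrins to actin in blood cells, lay above SS in MI cDC2 and below SS in MI moDCs, without overlap. It rose 1.92-fold in cDC2 and fell 1.71-fold in moDCs, a log2 difference of 1.71 ± 0.22 (adjusted p = 1.99e-05). Scimp, an adaptor of MHC class II and Toll-like receptor signalling, averaged 84.6 ± 17.4 CPM in MI cDC2 and 43.5 ± 6.64 in SS cDC2, with 58.8 ± 3.91 in MI moDCs and 114 ± 42.9 in SS moDCs (SD). It rose 1.95-fold in cDC2 and fell 1.94-fold in moDCs, a log2 difference of 1.92 ± 0.29 (adjusted p = 0.000246). All 4 kept their calls in the 27 alternatives.

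Of the 12 genes with a positive difference that fell in moDCs, 4 rose in cDC2 and 8 did not pass there. Slc14a1 had 52.3, 55.7 and 73.1 CPM in the MI cDC2 libraries, against 28.3, 21.6, 26.2 and 27.5 CPM in SS cDC2. In moDCs Slc14a1 had 14.4, 9.71, 8.18 and 4.10 CPM in MI, against 20.5, 17.9, 17.5 and 18.3 CPM in SS. Slc14a1, a urea transporter gene, rose 2.33-fold in cDC2 and fell 2.04-fold in moDCs without overlap in either, a log2 difference of 2.25 ± 0.35 (adjusted p = 0.000464). Alox5 had 75.04, 78.4 and 80.8 CPM in the MI cDC2 libraries, against 77.1, 71.5, 75.9 and 92.98 CPM in SS cDC2. In moDCs Alox5 had 43.1, 42.7, 32.2 and 44.1 CPM in MI, against 147, 158, 114 and 119 CPM in SS. Alox5 encodes 5-lipoxygenase, the first enzyme of leukotriene synthesis, and was chosen after its values were seen. MI moDCs lay below every other library, while the cDC2 groups overlapped. Alox5 fell 3.32-fold in moDCs, with a log2 change of -0.02 in cDC2 and a difference of 1.71 ± 0.32 (adjusted p = 0.00467). Mycl, a MYC family factor of dendritic cells chosen in the same way, averaged 40.4 ± 6.14 CPM in MI cDC2 and 27.5 ± 1.83 in SS cDC2, with 13.4 ± 0.610 in MI moDCs and 30.1 ± 8.09 in SS moDCs (SD). It fell 2.25-fold in moDCs with a log2 difference of 1.72 ± 0.31 (adjusted p = 0.00243). With SS libraries 1 and 4 only, the adjusted p was 0.0722 for Alox5 and 0.0939 for Mycl. Slc9a3r2, a scaffold protein gene, averaged 8.12 ± 4.47 CPM in MI cDC2 and 15.5 ± 6.85 in SS cDC2, with 2.69 ± 0.773 in MI moDCs and 23.6 ± 9.39 in SS moDCs (SD). It fell 8.74-fold in moDCs with a log2 difference of 2.20 ± 0.50 (adjusted p = 0.0202). Its call was lost without MI cDC2 replicate 1, MI moDC replicate 3 or 4 or SS moDC replicate 2, with an adjusted p of up to 0.159. The call was also lost in the fit with the pooled mural and endothelial sum (adjusted p = 0.0565). Slc9a3r2 also did not pass with SS libraries 2 and 3 only (log2 difference 1.90, adjusted p = 0.174), by limma voom (adjusted p = 0.136) or on the 15 libraries alone (adjusted p = 0.0775).

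**Figure D3:**
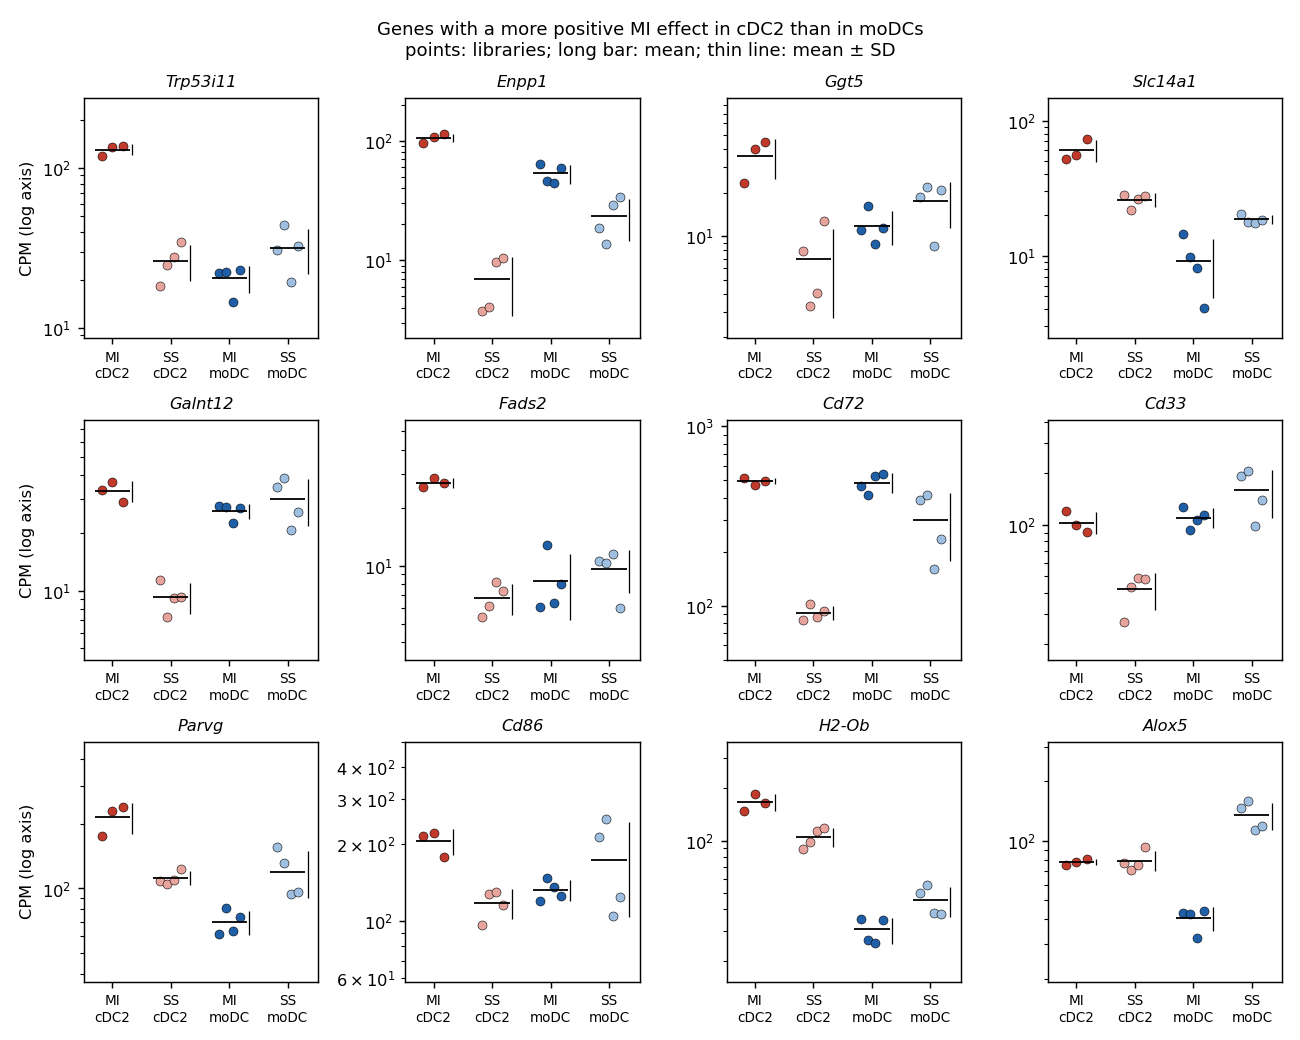
CPM on a log axis in each library for genes with a more positive MI effect in cDC2, by group, with a bar at the mean and a line of mean ± SD. MI cDC2 libraries stand above SS cDC2 for every gene shown except Alox5, whose MI moDC libraries stand below the other 3 groups.

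Of 30 lists of genes chosen for cardiac dendritic cells and macrophages, 16 held at least 1 called gene and none held more than 3, and 19 of the 118 called genes belonged to at least 1 list. These 19 were 3.12% of the 608 tested list genes, against 0.905% of all tested genes, and the lists were chosen with earlier results known. The 5 lowest list medians, against -0.009 over all genes, were -0.98 for chemokines, -0.71 for classical monocyte genes, -0.69 for monocyte and macrophage identity, -0.55 for Fc receptors and complement and -0.52 for lipid handling. Resident cardiac macrophage genes had a median difference of -0.11, with 12 of 25 falling in cDC2 and 11 of 25 in moDCs, and C4b alone of them had a called difference. Heat shock genes had no called difference among 24, with 15 falling in cDC2 and 11 in moDCs. Over all tested genes, 6.63% fell in cDC2 and 3.32% in moDCs. The 4 highest medians were those of cell cycle genes (0.43 over 37, of which 31 had a positive difference), MHC class II (0.25), immediate early genes (0.25) and shared dendritic cell genes (0.21).

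**Figure D4:**
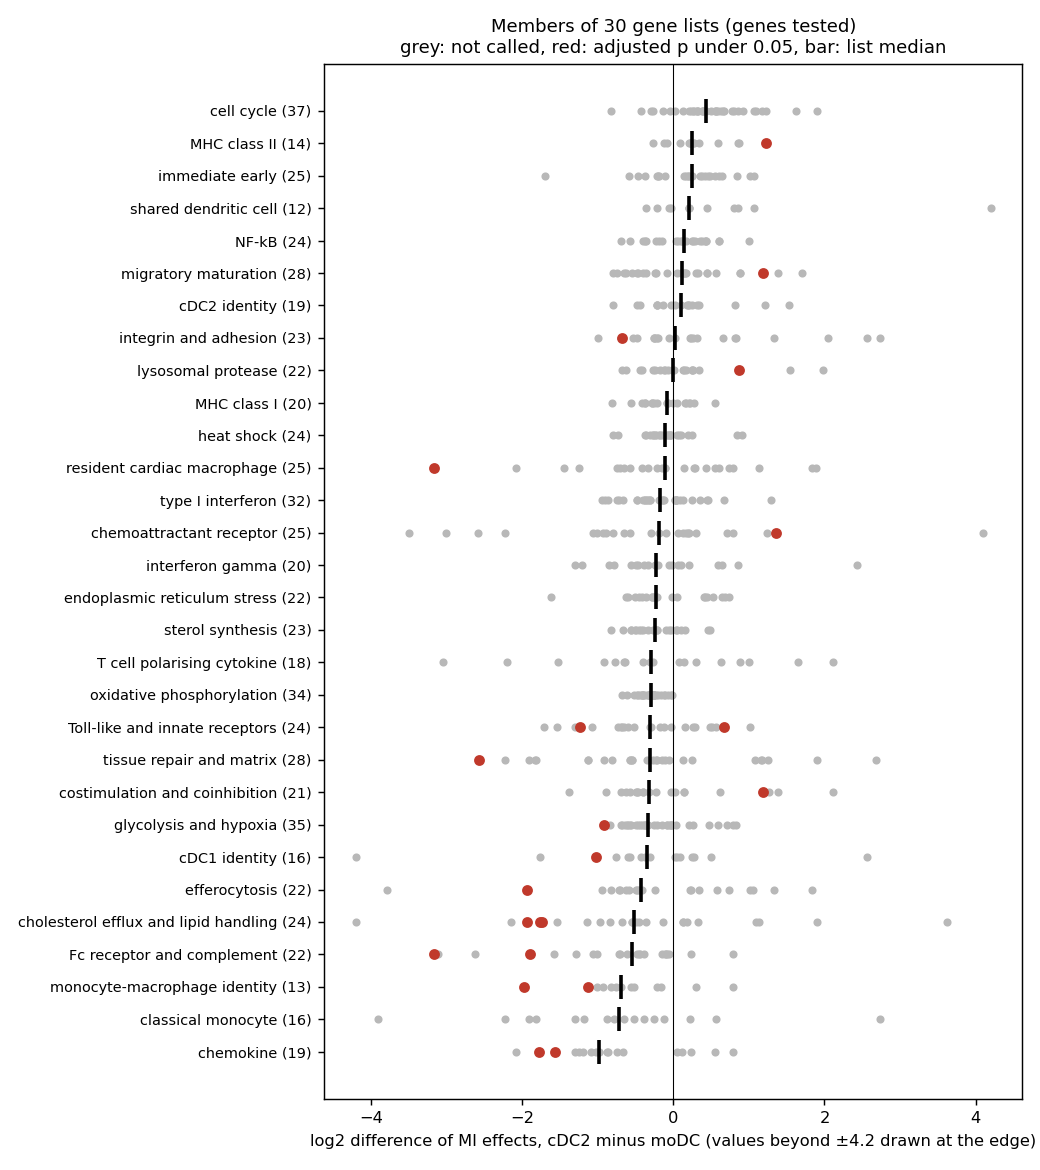
Log2 difference of the MI effect, cDC2 minus moDC, for the tested members of each gene list, with the list's median marked and called genes coloured. Chemokine and monocyte lists centre below 0 and cell cycle genes at 0.43, with at most 3 called genes in any list.

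None of 19 cDC2 identity, 12 shared dendritic cell, 24 NF-kB, 32 type I interferon, 20 interferon gamma or 18 tested T cell polarising cytokine genes was called, where 0.905% of all tested genes were, so that counts of 0 in lists of this size say little. The 34 oxidative phosphorylation genes had no call either, although all 34 estimates were below 0, with a median of -0.30. Among 24 Toll-like and innate receptor genes Tlr8 was called with a negative difference, and Tmem173, the cGAMP sensor STING, with a positive one of 0.67 ± 0.16 (adjusted p = 0.0305). Tmem173 averaged 306 ± 40.8 CPM in MI cDC2 and 150.2 ± 11.2 in SS cDC2, with 177 ± 8.85 in MI moDCs and 138 ± 5.81 in SS moDCs (SD). It rose 2.04-fold in cDC2, and its call was lost in 10 of the 15 fits that left out 1 library (adjusted p up to 0.153). Cd44, a hyaluronan receptor and the 1 call among 23 tested integrin and adhesion genes, had a log2 difference of -0.68 ± 0.16 (adjusted p = 0.029), and its call was lost in 8 of the 15 fits that left out 1 library (adjusted p up to 0.105). Cd44 did not pass on the 15 libraries alone (adjusted p = 0.103) either. A missing call does not show equal responses, given the width of the intervals.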

How the data were processed

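Each library was made from 4 ng of RNA by SMART-Seq v4 and read as single 75 nt reads, per the labels' protocols. The authors' tools were FastQC 0.11.4 (quality), Trimmomatic 0.35 (trimming), TopHat2 2.1.0 (alignment to mm10) and SAMtools 0.1.18, per the submitters' processing notes. Which tool counted reads, on which annotation and with what strand setting is not given in the sources used here. Overlapping genes, antisense partners and near-identical copies are therefore uncertain. The deposited values are whole read counts for 24421 gene symbols. The 5 entries for unassigned reads were left out of library sizes and tests: in the 15 libraries, 6.42% to 14.6% of counted entries were in no feature and 1.01% to 1.21% were ambiguous. Amplified reads without molecular identifiers are not independent molecules.

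In R 4.3.3, edgeR 4.0.16 (TMM, filterByExpr with minimum count 10, robust quasi-likelihood fit over 8 group means and all 31 libraries) tested the difference of differences, with Benjamini-Hochberg adjustment over 13039 genes. The common dispersion was 0.116. Alternatives used limma 3.58.1, DESeq2 1.42.0, other scaling, other libraries and covariates. In simulated counts (12738 genes), 36 of 100 genes with a log2 difference of 1 and 89 of 100 with one of 2 were recovered, with 3 false calls among 128. Differences were planted only in genes averaging at least 10 CPM, so recovery among lower genes was not tested. Counts of replicates varied beyond counting noise in every group (lowest chi-square per degree of freedom 11.81).

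Members and lists were chosen with earlier results of these data known. Named genes were the 12 largest differences in each direction reaching 10 mean CPM in the highest group, plus up to 3 called genes per list by smallest adjusted p. Predicted, unnamed, Y-linked and similar genes were left out. The 17 other genes were chosen after their values were seen, and not all are printed. Positions are from GENCODE M21 for 112 of 118 called genes, and RefSeq promoters were found for 83 of 118.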

Additional observations from a re-analysis of the deposited data

Results flagged for a closer look

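The MI effect differed between cDC2 and moDCs, by a test of the difference itself, for 118 genes. The 12 most negative log2 differences among the named genes were -3.17 for C4b, -2.65 for Trpm2, -2.60 for Lyz1, -2.57 for Ecm1, -2.36 for Slc27a3, -2.12 for Hmox1, -2.10 for Il1rn, -2.07 for Cd226, -1.97 for Lyz2, -1.93 for Cd36, -1.92 for Steap3 and -1.89 for Fcrls. The 12 most positive were 3.49 for Cep170b, 2.94 for Trp53i11, 2.92 for Ggt5, 2.74 for Enpp1, 2.45 for Tbc1d16, 2.25 for Tmem231, 2.25 for Plekha5, 2.25 for Slc14a1, 2.20 for Slc9a3r2, 2.19 for Fads2, 2.09 for Cxxc5 and 2.04 for Galnt12.

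Single libraries stood apart from the others of their group by Dixon's criterion in 12 of 165 gene and group tests (7.27%), where chance gives about 1 in 20. In MI moDCs these were Ecm1 in replicate 1 (146 CPM), Hmox1 in replicate 2 (231 CPM), Colec12 in replicate 4 (170 CPM), and Galnt12 (22.6 CPM), Trp53i11 (14.5 CPM) and Alox5 (32.2 CPM) in replicate 3. In SS cDC2 they were C4b in replicate 2 (39.6 CPM) and Hmox1 in replicate 3 (141 CPM). In SS moDCs they were Il1rn (417 CPM), Cd44 (703 CPM) and Plekha5 (1.72 CPM) in replicate 3 and Tlr8 in replicate 2 (48.0 CPM). Groups of 3 libraries, here MI cDC2, were not examined in this way.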

How the results depend on the processing

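The fit over all 31 libraries called 118 genes, 54 with a positive and 64 with a negative difference, and all 118 kept their direction in all 27 alternatives. The alternatives reuse most or all of the libraries that selected these genes, so kept directions are not separate support. For 55 named genes the alternatives gave 1485 values, of which 1278 stayed on the same side of the threshold, 207 no longer passed and 0 changed sign. Of the 118 genes, 31 were called throughout. Leaving out 1 library at a time gave 58 to 225 genes, 31 to 82 with a positive and 27 to 143 with a negative difference. DESeq2's Wald test called 233 (108 and 125). Without both SS libraries numbered 2, chosen after seeing the data, there were 52 calls (28 and 24). SS libraries 1 and 4 alone gave 40 negative calls. The cause of these shifts was not tested. Library numbers were not used as pairs: the labels do not say that a number marks a shared preparation, and the correlation of same-numbered cDC2 and moDC libraries' deviations ran from -0.058 to 0.171. All 4 SS pairs were positive (0.047 to 0.171), MI 2, SS 2 and SS 3 correlated best with their own number, and SS 1 and 4 had the higher share of reads in no feature in both cell types, so a shared preparation was not tested beyond these values. With a block by number 174 genes were called (98 negative), and with a block by state and number 189 (109 negative). Of the 55 named genes, 43 passed on the 15 libraries alone, 34 without both SS libraries numbered 2 and 50 with the pooled mural and endothelial sum. By limma voom 51 passed, without the filter on low counts 51 and under each block 54. All 55 passed under DESeq2's test and both other scalings. At this depth and number of libraries, 36% of simulated 2-fold differences in genes averaging at least 10 CPM were called, so a missing call does not show equal responses.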
